A study of Homo sapiens with 4 samples.

Results

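LINC-ROR, ESRG and LINC00678 are long non-coding RNAs (lncRNAs, non-coding transcripts longer than 200 nucleotides) associated with pluripotent stem cells, and their levels were examined here in HUH7 cells, an established hepatocellular carcinoma line. All rows of the deposited table whose transcript identifier belongs to these 3 genes in the GENCODE annotation were taken, which gave 4 of 19835 transcripts and 3 of 11466 genes. LINC00678 had 2 transcripts in the table, and LINC-ROR and ESRG had 1 each. HUH7 cells were grown in DMEM with glucose, gentamicin, HEPES and serum, with no treatment named, and RNA from a Qiagen RNeasy extraction was depleted of ribosomal RNA (Ribo-Zero) before strand-specific library preparation. In contrast, the labels give polyA RNA as the molecule. The 4 libraries formed 1 group, named replicates 1 to 4, and were treated as equal replicates. The titles carry the letter L for replicates 1 and 3 and H for replicates 2 and 4, which the submitters call internal names and not variables. Separate cultures are not stated for the 4 libraries, and all p-values therefore refer to the spread among libraries alone, which could be technical.

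LINC-ROR, the regulator of reprogramming, was named for its role in making induced pluripotent stem cells, and has been described as a decoy for the microRNA miR-145 and as a transcript that responds to p53 and to hypoxia. ESRG, the embryonic stem cell related gene, is abundant in undifferentiated human embryonic stem cells. Both are known to carry sequence of the endogenous retrovirus HERV-H, whose long terminal repeat LTR7 serves as a promoter in human pluripotent cells. The annotation used here holds no repeat names, so the repeated origin of the exons was measured from the sequence itself.

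The 3 genes lie on different chromosomes, all on the minus strand of GRCh37, and their exon 1 held the same stretch of sequence. It ran over 214 nt in LINC-ROR and ESRG and over 212 nt in the LINC00678 transcript ENST00000534757. Of 214 columns of the alignment, 191 (89.3%) were identical in all 3 genes. LINC-ROR and ESRG were the closest pair, with 204 of 214 aligned bases identical (95.3%). LINC00678 was identical to ESRG at 199 of 212 bases (93.9%) and to LINC-ROR at 192 of 212 (90.6%). The ESRG stretch matched the genome 997 times with at least 80% identity across 100 nt or more, and 786 of these matches had at least 90% identity.

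LINC00678 was the most abundant of the 3 genes, LINC-ROR lay just above 5 FPKM, the study's own cutoff for keeping a transcript, and ESRG lay below it. FPKM are fragment numbers corrected for transcript length and library depth, and gene values were sums over transcripts. LINC00678 (ENSG00000254934) had 17.19, 24.52, 15.58 and 12.86 FPKM in replicates 1 to 4, a mean of 17.5 ± 4.99 (SD, n = 4). All 4 libraries were above 5 FPKM, with replicate 2 the highest. Its level exceeded 5 FPKM by 1.59 ± 0.16 (SE) on the log2(FPKM + 1) scale (limma, adjusted p = 2.2e-07).

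LINC-ROR (ENSG00000258609) had 5.72, 9.80, 9.08 and 5.32 FPKM, a mean of 7.48 ± 2.29 (SD, n = 4). Replicates 2 and 3 were well above 5 FPKM and replicates 1 and 4 only just. The gene exceeded the threshold by 0.46 ± 0.20 (SE) on the log2(FPKM + 1) scale (limma, adjusted p = 0.0427). This call rested on single libraries, since the adjusted p was 0.178 without replicate 2 (log2 difference 0.33) and 0.172 without replicate 3 (0.36). It was also lost when no filter on low values was used (adjusted p = 0.0812) and in the fit over single transcripts (adjusted p = 0.0642).

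ESRG (ENSG00000265992) had 2.05, 2.30, 1.37 and 2.33 FPKM, a mean of 2.01 ± 0.446 (SD, n = 4). No library reached 5 FPKM, and replicate 3 was the lowest. In FPKM without scaling between libraries, both libraries with the letter H (2.30 and 2.33) were above both with L (2.05 and 1.37), whereas the letters overlapped in LINC-ROR and LINC00678. Size factors by the median of ratios were 0.968, 1.12, 1.02 and 0.925 in replicates 1 to 4. Divided by these, ESRG was lower in replicate 2 than in replicate 1, so the letters overlapped there too. The share of all genes that separate by letter was not counted, so the separation cannot be taken as a trait of ESRG. Genes of the lists below separated in both directions. MIR210HG was higher with H (96.3 and 89.9 FPKM) than with L (56.7 and 59.8). So were H19 (7.52 and 8.40 with H, 3.87 and 3.91 with L) and FIRRE (161 and 161, 136 and 129). UCA1 was higher with L (10.9 and 8.57 FPKM) than with H (5.02 and 5.73). So were PVT1 (286 and 292 with L, 271 and 234 with H) and HOTAIRM1 (57.8 and 47.5, 32.7 and 46.6). These are examples in FPKM without scaling, and divided by the size factors the letters overlapped in HOTAIRM1. The part of the letters in these levels was not tested. ESRG was below the threshold by a log2 difference of -1.01 ± 0.22 (SE) on the log2(FPKM + 1) scale (limma, adjusted p = 0.000665). Against a threshold of 1 FPKM in place of 5 the same libraries lay above it, with a log2 difference of 0.58 (adjusted p = 0.0267).

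A level above 5 FPKM was common among the genes tested. Of 7124 genes with a mean of at least 0.1 FPKM, 3582 (50.3%) were called above 5 FPKM and 2743 (38.5%) below, against 2 and 1 of the 3 members. By their means alone, 3969 of all 11466 genes (34.6%) exceeded 5 FPKM. The median of the genes tested was 7.61 FPKM, close to the level of LINC-ROR. Ranked among all 11466 genes of each library, LINC00678 stood at percentiles 74.5 to 78.8, LINC-ROR at 66.9 to 70.3 and ESRG at 54.7 to 60.0.

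**Figure D1:**
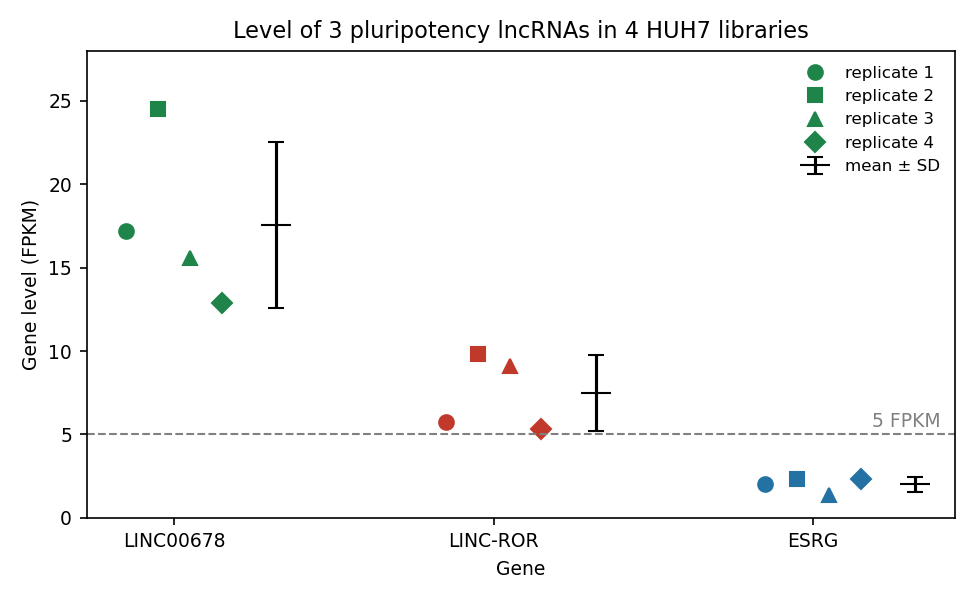
Gene level in FPKM (y axis) of LINC00678, LINC-ROR and ESRG in the 4 HUH7 libraries, with a marker for each replicate, bars for the mean ± SD and a dashed line at 5 FPKM. LINC00678 lies above the line in all 4 libraries, LINC-ROR between 5.32 and 9.80 FPKM, and ESRG at or under 2.33 FPKM.

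The order LINC00678, LINC-ROR, ESRG held in every library, as the plot of levels by replicate shows. LINC00678 was 1.72-fold to 3.01-fold higher than LINC-ROR within a library, a mean log2 ratio of 1.13 ± 0.30 (SD, n = 4) with a pseudocount of 1. LINC-ROR was 2.28-fold to 6.63-fold higher than ESRG, with a log2 ratio of 1.47 ± 0.53. LINC00678 was 5.52-fold to 11.4-fold higher than ESRG, with a log2 ratio of 2.60 ± 0.39. The spread of the LINC-ROR to ESRG ratio was the widest, from 0.92 in replicate 4 to 2.09 in replicate 3, where LINC-ROR was high and ESRG at its lowest. Each of the 3 ratios gave p = 0.125 by exact permutation of signs, two-sided (n = 4, adjusted p = 0.125 over the 3 pairs), which is the smallest value 4 libraries allow.

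The highest library was not the same for all members. In FPKM without scaling, replicate 2 was the highest library of LINC00678 and of LINC-ROR, whereas ESRG was highest in replicate 4. Divided by the size factors, LINC-ROR was slightly higher in replicate 3 than in replicate 2. The coefficient of variation was 30.6% for LINC-ROR, 28.4% for LINC00678 and 22.2% for ESRG. The FPKM hold no counts, but steps in the low FPKM values gave an estimate of about 4500000 to 5050000 fragments per library. At this depth ESRG rested on about 28.2, 34.2, 19.8 and 36.0 fragments in replicates 1 to 4, a mean of 29.6. If each fragment were assigned without doubt, counting error alone would give such a gene a coefficient of variation of 18.4%, beside 22.2% observed. A coefficient of variation over 4 libraries is itself imprecise, and the source of the spread was not tested. LINC00678 rested on about 55.5, 85.7, 52.8 and 46.6 fragments, for which counting error gives 12.9%, less than the spread observed. No estimate was made for LINC-ROR, whose annotated model is of another version than that in the table.

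LINC00678 was represented by a single isoform. The transcript ENST00000534757, of 798 nt in 4 exons, held the whole gene value in all 4 libraries and was above 5 FPKM in the fit over transcripts (limma, adjusted p = 1.1e-05), where 41.9% of the transcripts tested were called above. The second transcript, ENST00000527083, of 786 nt in 3 exons in the annotation, was listed at 0 in all 4 libraries. The table holds version 1 of that transcript and the annotation version 5. LINC-ROR was measured on ENST00000553704 (2604 nt in 4 exons, version 1 in the table and version 3 in the annotation). ESRG was measured on ENST00000583516 (3140 nt in 4 exons), which was below 5 FPKM in the same fit (adjusted p = 0.00293), as were 43.3% of the transcripts tested.

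The members differed in how much of each transcript was repeated sequence. A 24-mer (a run of 24 nt) was counted as repeated when GRCh37 holds 10 or more copies of it, counting both strands. ESRG had the most, with 51.2% of its 24-mers repeated, followed by LINC00678 with 33.5% and LINC-ROR with 10.8%. The share of 24-mers found once in the genome ran the other way, at 34.2% in ESRG, 51.1% in LINC00678 and 82.4% in LINC-ROR.

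In LINC-ROR the repeated sequence lay at the 5′ end. Exon 1 (216 nt) had 47.7% repeated 24-mers and exon 2 (chr18:54737041-54737234, 194 nt) 75.4%. Exon 3 (chr18:54724731-54725231, 501 nt) had none, and exon 4 (chr18:54721789-54723481, 1693 nt) had 3.35%, near its 3′ end. Exons 3 and 4 matched only themselves in the genome at 80% identity or more over at least 50% of their length, whereas exons 1 and 2 had 967 and 1036 such matches. Exons with a single match made up 2194 of the 2604 nt of LINC-ROR (84.3%).

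ESRG was repeated over most of its large exon 1. That exon (2167 nt) had 71.4% repeated 24-mers and 908 genome matches, and exon 2 (chr3:54668488-54668592, 105 nt) had 75.6% and 3331. Exon 2 was 97.6% identical to part of exon 1 over 84 nt, so ESRG holds a piece of the shared stretch in both exons. Exon 3 (chr3:54667586-54667767, 182 nt) had no repeated 24-mer but 153 more distant genome matches. Exon 4 (chr3:54666149-54666834, 686 nt) matched only itself, and this single exon, 21.8% of the transcript, was the part of ESRG without a second match in the genome.

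LINC00678 alternated between repeated and single-match exons. Exon 1 (297 nt) had 71.5% repeated 24-mers and 1988 genome matches. Exon 3 (119 nt) had 62.5% and 107322 matches, by far the most of any exon of the 3 genes. Exons 2 and 4 (196 and 186 nt) had no repeated 24-mer and matched only themselves. Together they made up 382 of 798 nt (47.9%).

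**Figure D2:**
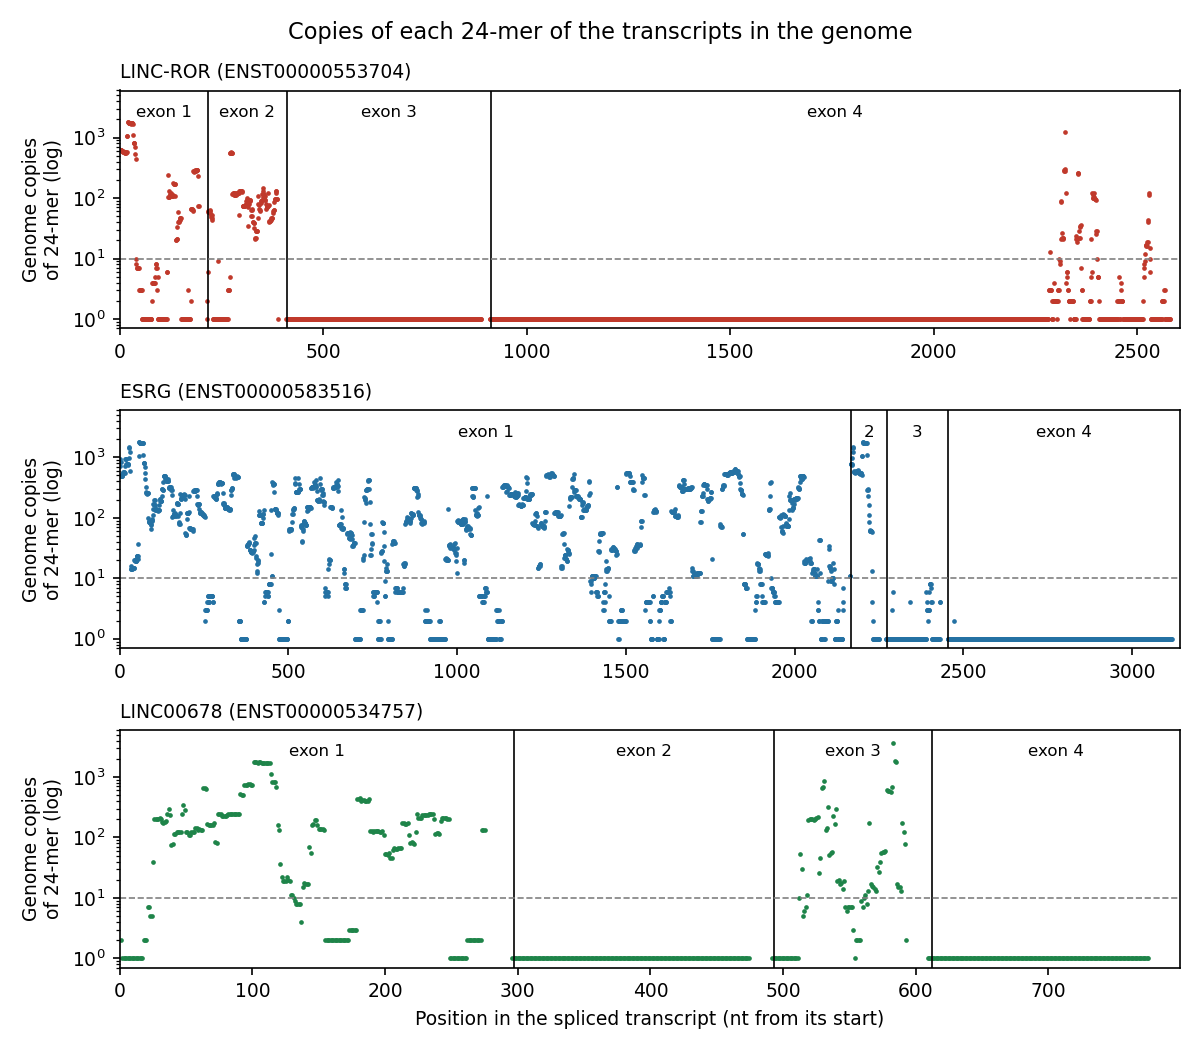
Genome copies of each 24-mer (y axis, log scale) along the spliced transcripts of LINC-ROR, ESRG and LINC00678 (x axis, nt from the start), with exon borders as vertical lines and a dashed line at 10 copies. Repeated 24-mers make up 47.7% of exon 1 of LINC-ROR, whose middle lies near 1 copy, and most of its exon 2, of exons 1 and 2 of ESRG and of exons 1 and 3 of LINC00678, while exon 4 of ESRG and of LINC00678 lies at or near 1 copy.

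ESRG also matched the other members outside the stretch common to all 3. Exon 2 of LINC-ROR matched nucleotides 1999 to 2164 of ESRG exon 1, near the end of that exon, over 172 nt at 86.6% identity. Exon 1 of LINC00678 matched ESRG over 251 nt at 93.6% identity, reaching further upstream than the stretch common to all 3. No exon of LINC00678 other than exon 1 matched either of the other genes.

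Reads from the repeated parts can match transcripts of other genes, and the quantification tool RSEM divides such reads by estimation. In the table, 22.2% of the 24-mers of LINC00678, 16.5% of those of ESRG and 8.18% of those of LINC-ROR also occur in a transcript of another gene. Their part in the levels was not tested. ESRG shared its longest total with ENST00000567058 (847 nt, 8.18 ± 1.76 FPKM), OLMALINC (ENST00000454935, 644 nt, 19.4 ± 3.36 FPKM) and LINC01013 (ENST00000419695, 555 nt, 0.165 ± 0.33 FPKM). LINC-ROR shared 414 nt with 2 transcripts of LINC00458, a lncRNA of pluripotent cells, at 1.24 ± 0.823 and 0 FPKM, and 411 nt with ENST00000507929 at 0.265 ± 0.347 FPKM. LINC00678 shared 259 and 258 nt with 2 transcripts of LINC01356, at 0.483 ± 0.456 and 43.7 ± 5.91 FPKM, and 257 nt with MGC32805 at 1.97 ± 1.2 FPKM. All these values are means ± SD over n = 4 libraries. These are the longest matches only, out of 67 transcripts for ESRG, 63 for LINC-ROR and 166 for LINC00678 that shared at least 100 nt.

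The stretch shared by the 3 members also opened other transcripts of the table, at levels near those of the table as a whole. In all, 49 transcripts of 33 genes held it in sense (at least 100 nt at 80% identity or more), 33 of them within 100 nt of the start. Apart from the members, 29 transcripts of 21 genes started in this way, and 6 of these (20.7%) had a mean above 5 FPKM, against 27.6% of all 18221 matched transcripts over 200 nt. Their median was 0.393 FPKM and 10 of the 29 were listed at 0 in all libraries, against a median of 0.323 FPKM and 7193 at 0 among the 18221. Of 16 transcripts of other genes with the stretch further in, 7 (43.8%) had a mean above 5 FPKM. In the fit over transcripts, 18 of the 29 with the stretch at the start were tested, of which 5 were above 5 FPKM, 10 below and 3 not placed. Among the 18221, 10482 were tested, of which 4283 were above and 4651 below. The other 11 of the 29 were not tested because of a mean under 0.1 FPKM.

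Among transcripts with this start, 4 had a higher mean than LINC00678 and 6, including LINC00678, a higher mean than LINC-ROR. The 4 above LINC00678 were ENST00000454596 of LINC01013 with 90.4 ± 18.3 FPKM, ENST00000420224 with 62.1 ± 11.5, ENST00000519840 with 41.7 ± 0.917 and ENST00000548359 with 19.8 ± 3.13 (SD, n = 4). ENST00000412445 of LINC02257, at 11.6 ± 1.21 FPKM, lay between the 2 members, and ENST00000539009 of LINC02617, at 6.80 ± 0.912, just under LINC-ROR. ESRG lay lower, below LINC00458 (ENST00000423442, 2.88 ± 1.37 FPKM). A transcript of the retroviral locus ERVH-1 (ENST00000507666), which also holds the stretch, had 3.19 ± 0.983 FPKM.

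**Figure D3:**
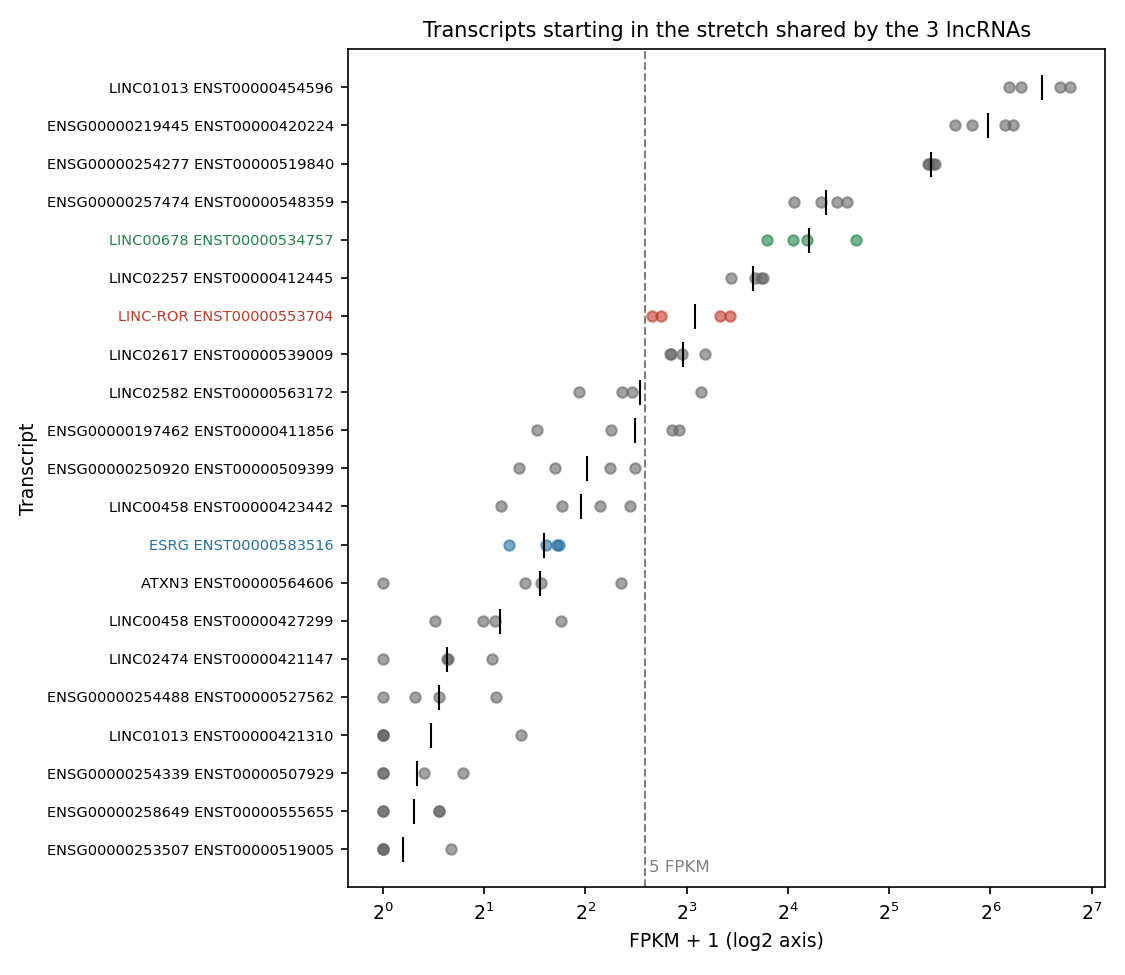
FPKM + 1 (x axis, log2 scale) in each of 4 HUH7 libraries (points) and the mean (vertical bar) of the tested transcripts that start in the stretch shared by the 3 lncRNAs, with the members in colour and a dashed line at 5 FPKM. The transcripts run from under 1 to 90.4 FPKM, with LINC00678 and LINC-ROR among those above the line and ESRG below it.

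LINC-ROR has been described as a decoy for miR-145, so matches to its seed (bases 2 to 8, in capitals) were counted in the 3 transcripts. The mature sequence is from RefSeq (GRCh38.p14).
hsa-miR-145-5p: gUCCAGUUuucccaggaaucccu
The LINC-ROR transcript held no match to the whole 7-base seed (AACTGGA in the transcript, searched on the sense strand only) and 3 matches to its first 6 bases (ACTGGA). Of these, 1 lay in exon 2, close to its border with exon 1, 1 in exon 3 and 1 in exon 4. The last pair is shown with 10 bases on each side and the match in capitals (GRCh37, minus strand).
LINC-ROR exon 3, chr18:54724932-54724957: tagcacagccACTGGAcacagggacc
LINC-ROR exon 4, chr18:54723074-54723099: aaattctatgACTGGAaagttttggg
ESRG held 1 whole 7-base match, at nucleotides 1717 to 1723 in exon 1, and LINC00678 held none.
ESRG exon 1, chr3:54672152-54672178: aaactccaaaAACTGGAatctggccct
Over all 18223 matched transcripts over 200 nt by sequence (18221 by annotated length), 11.4% held a 7-base match, at 0.116 such matches per kb. A 6-base match, alone or within a 7-base match, was held by 31.4%. These shares were not adjusted for transcript length. A match is a match of letters and was not tested as a site. CARMN, the host gene of miR-145, had 22.71, 23.55, 22.51 and 20.46 FPKM, a mean of 22.3 ± 1.31 (SD, n = 4), above LINC-ROR in 4 of 4 libraries. Mature microRNAs were not measured.

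The positions of the members placed them near or within coding genes. ESRG (chr3:54666149-54673884) lies inside the body of CACNA2D3, a calcium channel subunit gene on the opposite strand, with no exon overlap. Its nearest measured genes were distant. CACNA2D3-AS1, at 235 kb, was listed at 0, and non-coding transcripts of DCP1A, at 1285 kb, had 3.69 ± 0.753 FPKM (limma, adjusted p = 0.116). LINC-ROR (chr18:54721789-54739350) lies 24.7 kb from WDR7. The nearest measured genes on its sides were LINC01416 at 1134 kb (0.258 ± 0.156 FPKM) and LINC01544 at 4676 kb (14.1 ± 3.04 FPKM).

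LINC00678 (chr11:27639173-27656174) lies 20.3 kb from BDNF, the gene of brain-derived neurotrophic factor, and overlaps the body of BDNF-AS, the antisense RNA of BDNF, on the opposite strand. The exons of LINC00678 and BDNF-AS share no base. BDNF-AS had 24.46, 20.43, 15.25 and 18.33 FPKM, a mean of 19.6 ± 3.87 (SD, n = 4) that was above 5 FPKM (limma, adjusted p = 2.0e-08) and near that of LINC00678. BDNF-AS was highest in replicate 1 and LINC00678 in replicate 2. The other measured neighbours of LINC00678 were LGR4-AS1 at 135 kb, with 27.0 ± 3.68 FPKM, and ENSG00000255496 at 61.7 kb, listed at 0.

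The 6 lncRNAs of pluripotent cells chosen beside the members were mostly low. Of these, 0 were called above 5 FPKM and 4 below, against 50.3% and 38.5% of all genes tested. LINC00458, which shares sequence with LINC-ROR, came closest with 4.56, 6.82, 2.22 and 2.84 FPKM (4.11 ± 2.06, limma, adjusted p = 0.232), between LINC-ROR and ESRG. LINC00545 had 1.41 ± 0.564 FPKM, LINC01108 0.497 ± 0.326 and LNCPRESS1, a p53-regulated lncRNA of embryonic stem cells, 0.385 ± 0.158. MIR302CHG, the host of the miR-302 cluster of pluripotent cells, was listed at 1.03 FPKM in replicate 1 and at 0 in the others, and LNCPRESS2 was listed at 0 in all 4. LINC00678 and LINC-ROR were thus higher than every one of these 6 genes by mean, and ESRG higher than 5 of them. This holds for the 6 chosen genes only. The wider list below holds them too, and 9 of its 16 measured genes besides the members were called above 5 FPKM. Among those were TUNAR (18.4 FPKM), SOX2-OT (104) and FIRRE (147), each with a higher mean than LINC00678.

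On a wider list of 20 lncRNAs of pluripotency and early differentiation, 19 were measured, 11 of them above 5 FPKM and 6 below. Without the members the counts were 9 and 5 of 16. Over all genes tested, 50.3% were above and 38.5% below. LINC00678 was 10th and LINC-ROR 11th of the 19 by mean, the lowest pair among those above the threshold, and ESRG was 14th. The 4 highest were DANCR (3882 ± 322 FPKM), a host of small nucleolar RNA expressed in many tissues, OIP5-AS1 (901 ± 32.1), LINC00261 (377 ± 27.7), a lncRNA next to the endoderm factor gene FOXA2, and FIRRE (147 ± 16.7), an X-linked lncRNA of the nucleus. The median of the list was 17.5 FPKM, which is the value of LINC00678 itself, against 7.61 over all genes tested. GSC-DT was not analysed here.

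**Figure D4:**
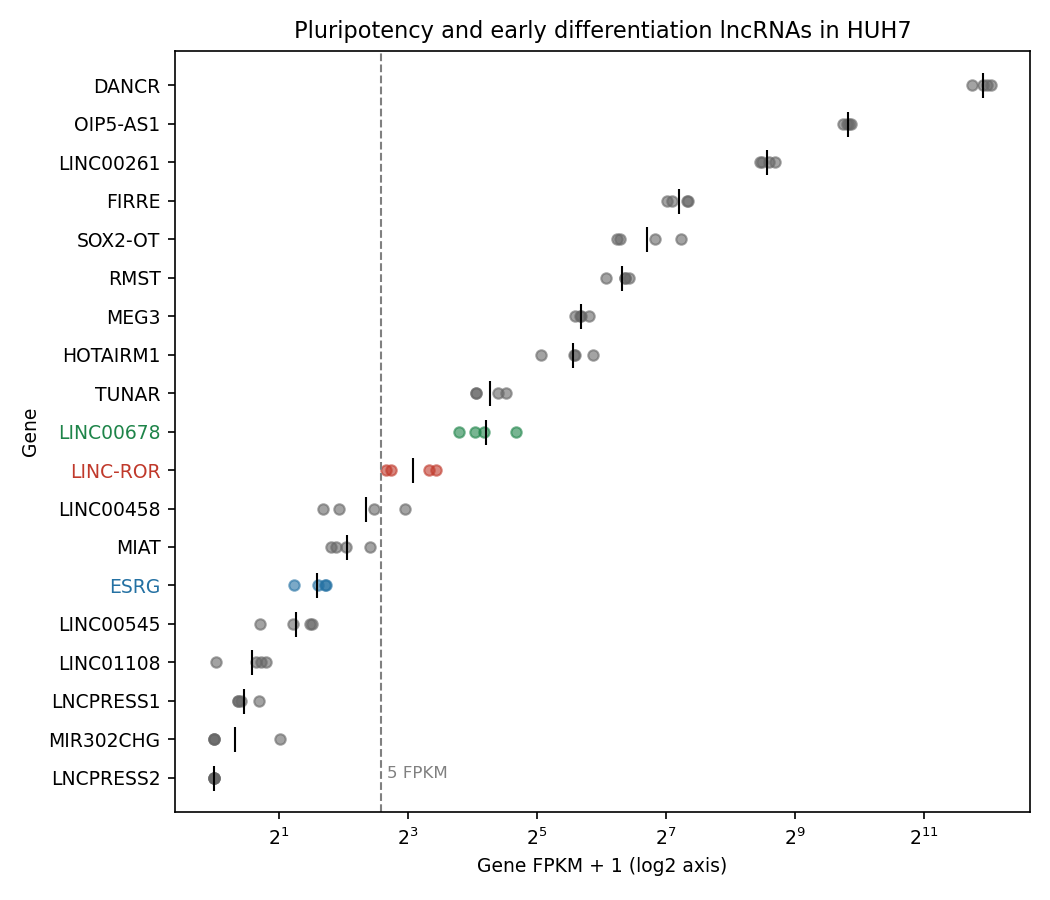
FPKM + 1 of each gene (x axis, log2 scale) for 19 lncRNAs of pluripotency and early differentiation in 4 HUH7 libraries (points) with the mean (vertical bar), the members in colour and a dashed line at 5 FPKM. LINC00678 and LINC-ROR are the lowest of the 11 genes called above the line, and the genes at the bottom, down to LNCPRESS2 at 0, are mostly lncRNAs of pluripotent cells.

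LINC-ROR also stands on 2 lists of stress pathways. Of 8 measured lncRNAs linked to p53, all 8 were called above 5 FPKM, as were 50.3% of all genes tested. The list was not tested as a set. LINC-ROR had the lowest mean of the list, and its call was lost without replicate 2 or 3. The highest were GAS5 (3584 ± 234 FPKM), PVT1 (271 ± 26.2), LINC-PINT (198 ± 35.5) and TP53TG1 (115 ± 9.79), and the next above LINC-ROR was MIR34AHG, the host of the p53 target miR-34a, with 11.6 ± 3.28. Of 9 measured lncRNAs linked to hypoxia, 6 were above and 1 below 5 FPKM, against 50.3% and 38.5% of all genes tested. There LINC-ROR was next to UCA1 (7.56 ± 2.71 FPKM, limma, adjusted p = 0.0493), below MALAT1 (1098 ± 298), MIR210HG (75.7 ± 20.3), NEAT1 (50.8 ± 14.1) and WT1-AS (31.2 ± 7.13) and above H19 (5.93 ± 2.38), HIF1A-AS1 (4.56 ± 1.2) and HIF1A-AS3 (2.73 ± 0.810). The median of that list was 7.56 FPKM. The labels name no stress or hypoxia treatment, so these are levels and not responses.

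Beside the label of the cells as liver carcinoma, 10 lncRNAs of liver and liver cancer were examined. Of 9 measured, 4 were called above 5 FPKM and 4 below, against 50.3% and 38.5% of all genes tested. These counts do not set the list apart from all genes. Among those above were HULC (693 ± 64.8 FPKM), the lncRNA highly upregulated in liver cancer, LINC00261 and HNF4A-AS1 (22.5 ± 2.82). The other 5 (APOA1-AS, FAM99A, FAM99B, LINC00844 and LINC01093) were below it or listed at 0. In bulk RNA, fewer cells with a transcript and less RNA per cell cannot be told apart, which holds for the low level of ESRG too.

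By the Euclidean distance of log2(FPKM + 1) over the 4 libraries, among 5077 named genes, the genes nearest to LINC-ROR were LINC00161 (distance 0.219, 7.20 ± 2.08 FPKM), LINC01423 (0.273) and PRSS23-AS1 (0.294). Those nearest to ESRG were LINC02440 (0.127, 1.91 ± 0.428 FPKM), KCNC4-DT (0.224) and FSIP2-AS2 (0.229). Those nearest to LINC00678 were LINC01781 (0.153, 16.8 ± 5.31 FPKM), the non-coding gene RFX3-DT (0.286) and non-coding transcripts of USP6NL (0.313). None of these 9 genes stands on the lists above, and the distance reflects level and spread over 4 libraries only.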

How the data were processed

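RNA of 4 libraries of HUH7 cells (1 group) was quantified by the authors, who deposited FPKM values for 19835 non-coding transcripts. According to the submitters' processing notes, Bowtie 1.01 and RSEM 1.2.3 were used with build hg19 (GRCh37). The reference was an Ensembl non-coding annotation without coding transcripts, and the FPKM scale refers to fragments aligned to it. Reads of coding transcripts that share sequence with its entries could be among these fragments, which was not tested. Reads with several matching transcripts are apportioned among them by RSEM. The strand setting of the alignment is not given in the sources used here, and no scaling between libraries was applied. Summed FPKM were 1965229, 1755972, 1904926 and 1935247 in replicates 1 to 4.

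Identifiers were matched without version to GENCODE release 44 mapped to GRCh37. Of these, 18373 matched, 11443 with the same version. Gene values were sums of transcripts. Levels were tested as log2(FPKM + 1) against log2(5 + 1) in limma 3.58.1 (R 4.3.3), by a moderated one-sample test that used the mean-variance trend. Tests were two-sided, p-values were adjusted by Benjamini-Hochberg over 7124 genes or 11435 transcripts (mean of 0.1 FPKM or more), and the threshold was 0.05. The script was tested on simulated data. The pseudocount understates differences of low genes. Pairs of members were compared by an exact sign-flip permutation test over 16 sign assignments.

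Depth was estimated from transcripts of the same version and at least 300 nt, as the fragment number for which values of 0.3 to 5 FPKM, times length minus 80 nt, fell on whole fragments. Among those of these values that came to few fragments, between 64.9% and 66.4% lay within 0.05 of a whole number. The depth was chosen to make this share highest, and no count test was run. The estimate and its counting errors cover sampling only.

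Exons were matched with blastn 2.17.0 (at least 80% identity; 100 nt between transcripts, 50% of an exon against the genome), the shared stretch was aligned with MAFFT 7.526, and 24-mers were counted in the GRCh37 genome on both strands. Other statistics used Python 3.11.15 and SciPy 1.17.1, and figures matplotlib 3.10.9.

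Named genes were the members, the 4 highest of each list and those at 0, the 3 nearest in level, the nearest measured gene on each side, and the 3 transcripts sharing most sequence. Further genes of the lists and transcripts of the shared start were named after their values were seen. The members and lists were chosen with earlier results of these data known. The alternatives were another pseudocount, filter, threshold, scaling, variance model and isoform choice, and leaving out each library. Some sequences and 1 listed gene are not reported here.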

Additional observations from a re-analysis of the deposited data

Results flagged for a closer look

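A library far from the other 3 was sought in 56 genes, transcripts and log2 ratios of member pairs. Dixon's test at the 95% level, which flags about 1 in 20 groups by chance, marked 5 of them. LINC-ROR, ESRG and LINC00678 were not among these. LNCPRESS1, a lncRNA of pluripotent cells, stood at 0.62 FPKM in replicate 3, above 0.29 to 0.33 in the others. MIR302CHG was listed at 1.03 FPKM in replicate 1 and at 0 in the others. HULC was lowest in replicate 3, at 597 FPKM, against up to 734 in the others. LINC00844 was listed at 0 in replicate 4 and at up to 0.56 FPKM in the others. ENST00000524275 of ENSG00000253507, which holds the stretch shared by the members, stood at 15.3 FPKM in replicate 2, the lowest library being at 10.7.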

How the results depend on the processing

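LINC00678 was above the threshold used in each alternative run, with log2 differences of 1.42 to 1.72 when a library was left out. LINC-ROR was not placed with no filter on low values (0.46, adjusted p = 0.0812), changed side at a threshold of 10 FPKM (-0.42, adjusted p = 0.0614) and ranged from 0.33 to 0.59 (adjusted p 0.0235 to 0.178) with a library left out, losing its call without replicate 2 or 3. ESRG changed side at a threshold of 1 FPKM (0.58, adjusted p = 0.0267) and ranged from -1.06 to -0.90 with a library left out. Genes called below the threshold numbered 6823 with no filter, which tests more low genes, and 1084 at a threshold of 1 FPKM, against 2743, and listed pluripotency lncRNAs below it were 2 at 1 FPKM, against 6. The higher count follows from the genes added, and the others from the threshold itself. The other 103 of 111 alternatives over 14 results left direction and call as they were, or a count within 1.5 times. Those on isoforms among them could not move LINC-ROR or ESRG, which have 1 transcript each. They could not move LINC00678 either, whose second transcript was listed at 0, and show no stability. The call of the member pairs could not change, since the exact permutation of signs allows no p under 0.125, or 0.25 with a library left out. Their other runs speak for direction only. The count of other transcripts with the shared start above 5 FPKM, 6, was repeated at 90% identity (6 of 27 transcripts) and with the match within 50 nt of the start, both chosen after seeing the data. No paired analysis was possible because all libraries form 1 group. The share of the leading isoform of LINC-ROR could not be computed with isoforms of the same version, since it has none. Depth limits ESRG more than LINC00678, with about 29.6 against 60.2 fragments per library, and was not estimated for LINC-ROR.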
